A study of Mus musculus with 6 samples.

Results

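The circles described here come from 10 host genes whose circular RNAs (circRNAs) are known from many tissues: Hipk3, Hipk2, Zfp609, Cdyl, Zkscan1, Smarca5, Itch, Rhobtb3, Strn3 and Mbnl1. The hosts were chosen by name, and every circle listed under one of these names was taken, which gave 55 of the 27999 circles in the table and 10 of its 7411 hosts. The study measured circRNAs in whole mouse ovaries of the inbred strain C57BL/6, in neonates at postnatal day 5 (3 libraries) and in adults at 6 weeks (3 libraries). In both groups total RNA was digested with RNase R, an enzyme that degrades linear RNA and leaves circles, before sequencing. Whether a library stands for 1 animal or a pool is not stated in the labels, so the spread behind the p-values may be technical. The authors named the groups A and B in their comparison, and no label ties a letter to an age, so every difference below is between A and B and not between ages. Values per library match no sample label and were not used, so neither the level of a circle nor the depth of a library is given.

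A circRNA forms when the end of an exon is spliced back to the start of the same exon or of one further upstream, which closes the RNA into a loop and leaves a joint that the linear mRNA lacks. Long introns on both sides, repeats in them that pair with each other, and RNA-binding proteins such as Quaking and Muscleblind favour this reaction. The loop has no free end for exonucleases, so circles outlast most linear RNAs and build up in cells that divide little. Best known among the human circles are those of HIPK3 exon 2, of ZNF609 (the human counterpart of Zfp609) exon 2, and of ZKSCAN1 exons 2 and 3.

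The joints below are those on which the results turn: the first 4 belong to circles of 1 exon, the next to the Zkscan1 circle of exons 2 and 3, the Rhobtb3 pair shares the end of exon 8 but not its start, the first of the Strn3 pair is the main circle and the second is the only circle of the 10 hosts that the authors marked as different, and the last is the main circle of Mbnl1. Each sequence runs 5′ to 3′ on the transcript strand, from GENCODE M21 transcripts of GRCm38. Lower case is the end of the last exon, and capitals are the start of the first exon, to which it is joined in the circle.
Hipk3 circRNA2859, exon 2: atctcgctactacagGTATGGCCTCACAAG
Hipk2 circRNA1889, exon 2: atccagatactaccgGTATGGCCTCACATG
Zfp609 circRNA3355, exon 2: gtcaagtctgaaaagCAATGATGTTGTCCA
Cdyl circRNA109, exon 5: ctgttaatggaaaagGTGGAAAGTATCGTT
Zkscan1 circRNA2259, exons 2 and 3: gtctcttatcccgagGAATAGTGGAGGAAC
Rhobtb3 circRNA4104, exons 4 to 8: tctttgaaatacaagAAGAATTACCTTGTA
Rhobtb3 circRNA164, exons 7 and 8: tctttgaaatacaagGTGCTTTTCAGTGGG
Strn3 circRNA286, exons 14 to 16: ttgacaataaaacggAGTCAAACGTTCTAG
Strn3 circRNA288, exons 10 to 14: acaatggagacaaggCTGAACCAATAACGT
Mbnl1 circRNA10406, exons 3 and 4: acagacagactggagGGTCGTTGCTCCAGA

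Circles of the 10 hosts were seen in more libraries than the catalogue as a whole. How many libraries held a circle was read from the authors' p-value and fold change: a value in a single library of 6 always gives p = 0.423 in an unequal-variance test, and 17355 circles have this p. Of the 55 circles, 26 (47.3%) were seen in a single library, against 62.0% of all circles. Values in both groups, over 3 or more libraries in all, were held by 16 circles (29.1%), against 20.7% of the catalogue. Every host except Smarca5 had at least 1 such circle, and so did 2965 of all 7411 hosts. The 10 hosts also had more circles each (median 5, against 2), from 1 in Smarca5 to 10 in Strn3, so a host had more chances to have one. Of the 55, 53 were exonic and 2 were intronic, 1 in Hipk3 (B only) and 1 in Mbnl1 (A only), both seen in a single library.

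Since levels were not used, the main circle of a host was set by rule as the exonic circle with values in both groups that has the smallest number in the authors' names. That number gives the order of the authors' list and is not a level. Consecutive numbers of a host ran in order of start coordinate, so the rule rests in part on genomic position. Numbers further apart did not always do so: in Hipk3, circRNA2859 starts at 104470749 and circRNA11070 at 104436997. In Zfp609, circRNA3354 starts at 65700822 and circRNA3355 at 65794622. The map of circles over exons shows each main circle beside the others of its host.

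**Figure D1:**
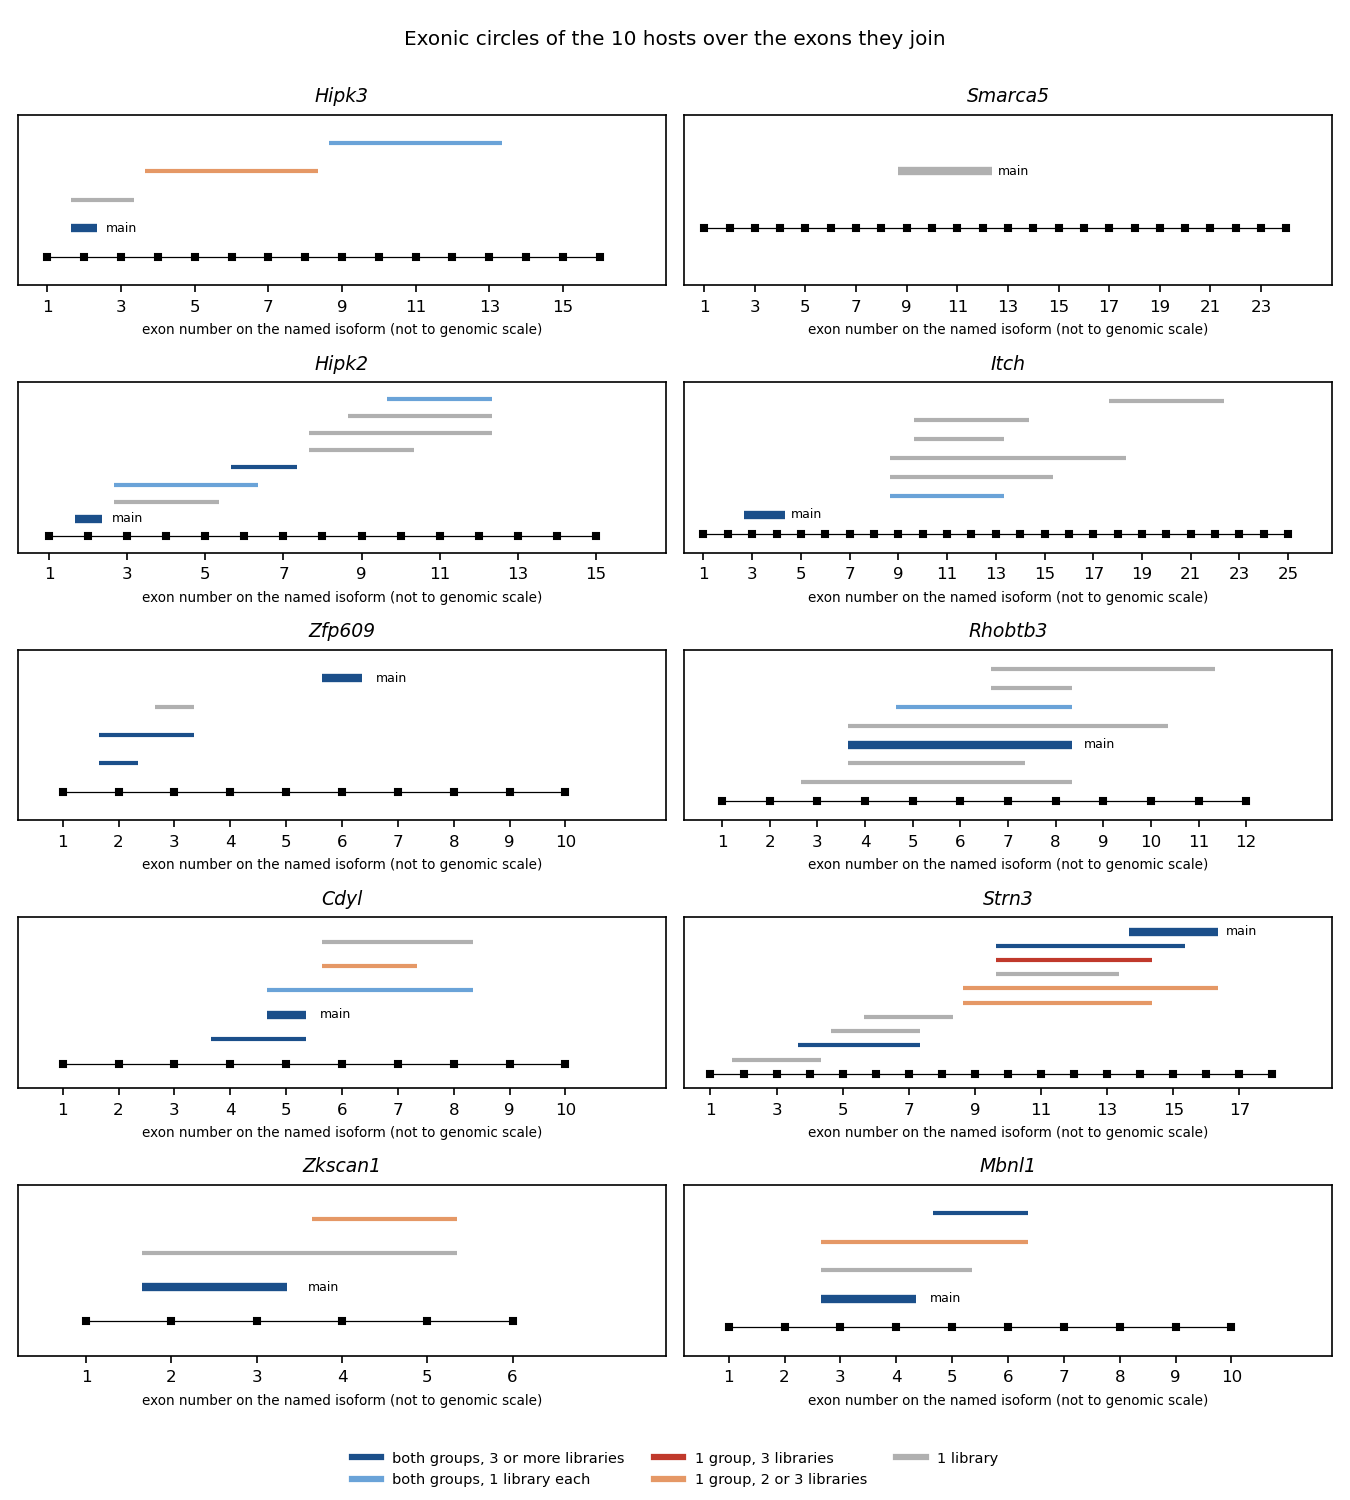
Exonic circles of the 10 hosts, each drawn as a bar from the first to the last exon it joins, over the exons (squares) of the isoform the authors name. The x axis is the exon number and is not to genomic scale, colours give the libraries that held the circle, and thick bars are main circles. The Itch main circle is numbered on an isoform of its own with 7 exons, while the axis shows one with 25. The main circles of Hipk3, Hipk2, Zfp609 and Cdyl join 1 exon to itself, and the circles of Strn3 and Itch stack over shared exons.

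Hipk3 and Hipk2 encode related nuclear serine/threonine kinases that act in transcription and cell survival. The main circle of each was its long exon 2 closed on itself. In Hipk3 this was circRNA2859 (chr2:104470749-104471847, minus strand, GRCm38), exon 2 of 16 and 1099 nt long, of which 1097 nt are coding. The authors' deposited table put its log2 fold change of A over B at -0.20 (p = 0.698), or 1.15-fold higher in B. The Hipk2 counterpart, circRNA1889 (chr6:38818230-38819313, minus strand), was exon 2 of 15 and 1084 nt long. For this circle the authors' deposited table gave -0.11 (p = 0.763), or 1.08-fold higher in B. The other Hipk3 circles joined exons 2 and 3, exons 4 to 8 and exons 9 to 13. Among them circRNA11070, of exons 4 to 8, was found in A alone, and the authors' deposited table gave it the smallest p of the Hipk3 circles (p = 0.187). Hipk2 had 7 other circles, of 2 to 5 exons, and 3 of them ended with exon 12. Its circRNA8582, of exons 6 and 7, was the other with values in both groups over 3 or more libraries, and the authors' deposited table put its log2 fold change at 0.47 (p = 0.778).

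The exon 2 circles of the Hipk family can be compared by sequence. Hipk1, a paralog outside the 10 hosts, had a circle of exon 2 alone as well (circRNA10563, 1078 nt). All 3 exons begin with the same 13 letters, in which the ATG in capitals below stands at position 3, shown from the first base of the exon.
Hipk1 exon 2: gtATGgcctcacagctgcaggtgttttcgc
Hipk2 exon 2: gtATGgcctcacatgtgcaagttttctccc
Hipk3 exon 2: gtATGgcctcacaagtcttggtctacccac
That ATG is annotated as the start codon in 3 of 3 Hipk3 isoforms that hold the exon, in 4 of 5 of Hipk1 and in 1 of 4 of Hipk2. Identity over aligned bases was 73.3% between Hipk2 and Hipk3, 75.4% between Hipk1 and Hipk2 and 71.0% between Hipk1 and Hipk3. The authors' deposited table listed the Hipk1 exon 2 circle in A alone (p = 0.184). Its exon 2 and 3 circle, circRNA10562 (1202 nt), had values in both groups, and the authors' deposited table put its log2 fold change at -1.03 (p = 0.180).

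Zfp609 and Zkscan1 encode zinc finger proteins that regulate transcription. Zfp609 had 4 circles, and all 3 that were seen in 2 or more libraries stood higher in A. The exon 2 circle, circRNA3355 (chr9:65794622-65795495, minus strand), was 874 nt long, with 747 coding bases that include the start codon. The authors' deposited table put it 2.60-fold higher in A, a log2 fold change of 1.38 (p = 0.180). By the rule on names the main circle was instead circRNA3354 (chr9:65700822-65701188), exon 6 of 10, 367 nt long. Among circles of the 10 hosts with values in both groups, the authors' deposited table gave this one the largest log2 fold change, 2.57 (5.92-fold), with p = 0.244. Another circle, circRNA12298, joined exons 2 and 3 (1100 nt), and stood at a log2 fold change of 1.27 by the authors' deposited table (p = 0.372). Exon 3 alone also closed on itself, in a single library of A (226 nt). None of these differences had p under 0.05.

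Zkscan1 had 3 circles. Its main circle, circRNA2259 (chr5:138092920-138094139, plus strand), joined exons 2 and 3 of 6 and was 661 nt long, with the start codon in it. By the authors' deposited table it was 1.17-fold higher in A, a log2 fold change of 0.23 (p = 0.659). Exons 4 and 5 gave circRNA22932 (219 nt), which the authors' deposited table listed in B alone (p = 0.200). The last, of exons 2 to 5, spans both of these and was seen in a single library of A.

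Cdyl encodes a chromodomain corepressor that binds methylated histone H3, and Smarca5 the ATPase of ISWI chromatin remodelling complexes. The main Cdyl circle, circRNA109 (chr13:35815909-35816575, plus strand), was exon 5 of 10, 667 nt of coding sequence. By the authors' deposited table it was 1.88-fold higher in A (log2 fold change 0.91, p = 0.288). With exon 4 added, as circRNA3962 (742 nt), the authors' deposited table gave a log2 fold change of 0.54 (p = 0.602). The exon 5 to 8 circle, circRNA110 (1308 nt), had 1 library in each group, and the authors' deposited table put its log2 fold change at -0.03 (p = 0.989). Exons 6 and 7 gave circRNA3963, which the authors' deposited table listed in A alone (p = 0.194). Smarca5 stood apart with 1 circle, circRNA12805 (chr8:80717522-80724237, minus strand), which joined exons 9 to 12 of 24 (528 nt) and was seen in a single library of A. The human circle for which SMARCA5 is known is made of exons 15 and 16, and no circle of those exon numbers was among those analysed here.

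Itch encodes a HECT-type ubiquitin ligase, and Rhobtb3 a protein that acts in vesicle transport. Circles of Itch fell into separate regions of the gene. The main one, circRNA2955 (chr2:155157774-155163483, plus strand, 293 nt), joined exons 3 and 4 of the 7-exon isoform the authors name. On a coding isoform the same exons hold the start codon. The authors' deposited table put its log2 fold change at 0.48 (p = 0.159). The other 6 Itch circles lay between exons 9 and 22 of a 25-exon isoform, and 3 of them began with exon 9. Of these 6, 5 were seen in a single library, and circRNA19018, of exons 9 to 13, had 1 library in each group, with 0.53 as its log2 fold change by the authors' deposited table (p = 0.813).

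Rhobtb3 had 7 circles, and 4 of them ended with exon 8 of 12, as the shared lower-case letters of the Rhobtb3 joints above show. The main circle, circRNA4104 (chr13:75892906-75917847, minus strand), joined exons 4 to 8 (867 nt). The authors' deposited table put it 1.75-fold higher in A (log2 fold change 0.81, p = 0.509). The exon 5 to 8 circle, circRNA13345, had 1 library in each group, and by the authors' deposited table it was 2.01-fold higher in A (p = 0.684). The other 5, among them the short circRNA164 of exons 7 and 8 (234 nt), were each seen in a single library, 4 of A and 1 of B.

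Strn3, which encodes a striatin, a scaffold that brings the phosphatase PP2A to its partner kinases, had the most circles (10) and the only marked one. The marked circle, circRNA288 (chr12:51623176-51629507, minus strand), joined exons 10 to 14 of 18 (648 nt). It had values in all 3 libraries of A and in none of B, and the authors' deposited table gave p = 0.0119 before and 0.522 after adjustment. The mark stands for p under 0.05 and a difference of 2-fold or more, and 1.75% of all circles carry it, 1.23% as higher in A and 0.521% as higher in B. One of 55 circles (1.82%) is near that background, as is 1 of the 29 seen in 2 or more libraries, where 4.59% of all such circles are marked. The main circle, circRNA286 (chr12:51619814-51623343), joined exons 14 to 16 (417 nt), and the authors' deposited table put it 3.90-fold higher in A (log2 fold change 1.96, p = 0.0905). Both circles hold exon 14, where circRNA288 ends and circRNA286 begins.

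The other Strn3 circles from exons 9 to 16 overlapped these. Exons 10 to 15 gave circRNA4387, for which the authors' deposited table had a log2 fold change of 1.82 (p = 0.305). The authors' deposited table listed circRNA287, of exons 9 to 14 (p = 0.184), and circRNA4386, of exons 9 to 16 (p = 0.185), in A alone. Away from this region, circRNA4389, of exons 4 to 7, was at 0.02 by the authors' deposited table (p = 0.980). All 6 Strn3 circles seen in more than 1 library stood higher in A, and each had a length divisible by 3. Among circles made of coding sequence alone, 39.5% of the catalogue and 41.3% of those of the 10 hosts had such a length. All of the 6 Strn3 circles but circRNA4389 share exons and ends, so they are not 6 separate measurements. Of the 4 Strn3 circles seen in a single library, 2 were in A and 2 in B.

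Mbnl1 encodes a muscleblind protein, a splicing regulator whose fly counterpart binds its own transcript and favours a circle of its second exon. Mbnl1 was the host whose multi-library circles were all higher in B (3 of 3). The main circle, circRNA10406 (chr3:60595594-60603894, plus strand), joined exons 3 and 4 of 10 (372 nt). The authors' deposited table put it 2.07-fold higher in B (log2 fold change -1.05, p = 0.168). Exons 3 to 6 gave circRNA21612, which the authors' deposited table listed in B alone (p = 0.185). Exons 5 and 6 gave circRNA10407 (412 nt), which shares no end with the main circle. For it the authors' deposited table had a log2 fold change of -0.18 (p = 0.872). Exon 3 was the first exon of 3 of the 4 exonic circles, and those 3 share the upstream intron.

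Over all 10 hosts, the shares of circles higher in A were close to those of the catalogue. Of the 29 circles seen in more than 1 library, the authors' deposited table put 21 (72.4%) higher in A, against 70.1% of all such circles. Among the 22 with values in both groups, 16 (72.7%) were higher in A, against 67.3%, and their median log2 fold change was 0.51 by the authors' deposited table, against 0.42. Of the 16 with values in both groups over 3 or more libraries, 10 (62.5%) differed by less than 2-fold, against 57.6%. One circle, the marked Strn3 circRNA288, had p under 0.05 (1.95% of all circles), none had p under 0.01 with a difference of 2-fold or more (0.521% of all circles), and none had an adjusted p under 0.05 (0.0% of all circles). In whole ovary, fewer cells that make a circle and less of it per cell cannot be told apart.

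For the 9 main circles with values in both groups the median log2 fold change was 0.48 by the authors' deposited table, and for the 13 other circles with values in both groups it was 0.53. The main circle was within 2-fold of equal values in 6 of 9 hosts, and the exceptions were Zfp609, Strn3 and Mbnl1. In 5 of the 9 hosts with at least 2 multi-library circles, all of these lay on the same side: A in Zfp609, Itch, Rhobtb3 and Strn3, and B in Mbnl1. The same count over all hosts was not made, and 70.1% of all multi-library circles were higher in A. Circles of a host often share ends, so they are not separate measurements.

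**Figure D2:**
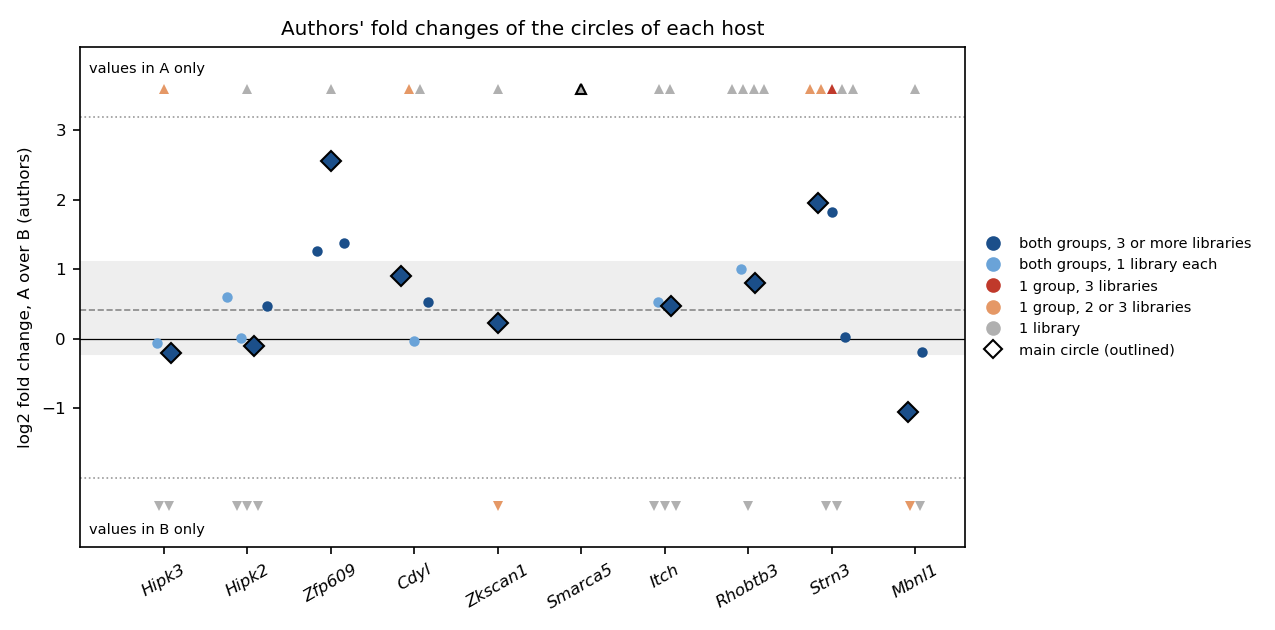
The authors' log2 fold change of A over B (y axis) for all 55 circles by host (x axis). Diamonds are main circles, colours give the libraries that held a circle, triangles beyond the dotted lines are circles with values in 1 group only and have no fold change, and the dashed line and grey band are the median (0.42) and quartiles (-0.21 and 1.10) of all circles with values in both groups. The points of Hipk3 lie near 0, those of Hipk2 from -0.11 to 0.61, those of Zfp609 above the band and those of Mbnl1 below 0.

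Under the rule on names, main circles more often had fewer exons than the rest. The main circle had fewer exons than the median of the others in 7 of the 9 hosts that have others. Zfp609 and Rhobtb3 were the exceptions. Choosing instead the circle that overlaps the most others of the host leaves 2 of 9. That choice tends to favour circles that span more exons, so a lower count is partly built into it. The count rests on how the main circle is chosen, and it was not made over all hosts. Circles of 1 exon made up 6 of the 53 exonic circles (11.3%), against 5.05% of all those placed, and 4 of the 10 main circles. The share was 9.09% in paralogs of the 10 hosts and 5.71% in 20 other much-studied hosts. It was 14% in hosts that encode factors acting on circle formation. In those sets the median length of such circles was 454, 342.5 and 185 nt, in that order. The 6 circles of the 10 hosts had a median length of 770.5 nt, against 317 nt for all 1305 circles of 1 exon, though not each was long. By length the Hipk3 circle stood at percentile 92.4 of these, Hipk2 at 92.1, Zfp609 exon 2 at 87.3, Cdyl at 79.8, Zfp609 exon 6 at 57.8 and Zfp609 exon 3 at 24.0.

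**Figure D3:**
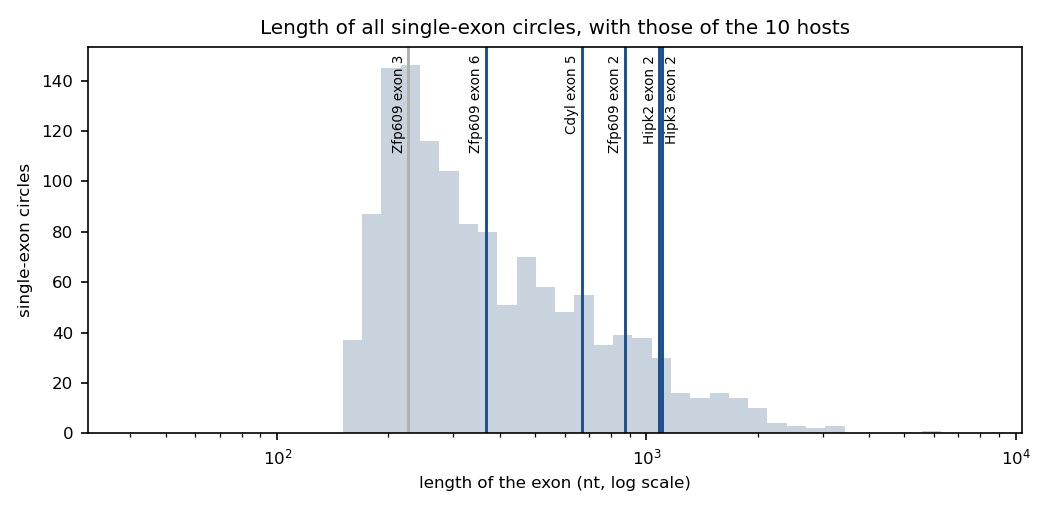
Lengths of the 1305 circles of 1 exon in the whole table (grey histogram, x axis in nt on a log scale, y axis the number of circles). Vertical lines are the 6 such circles of Hipk3, Hipk2, Zfp609 and Cdyl: blue had values in both groups over 3 or more libraries, and grey was seen in a single library. The blue lines lie at 367 to 1099 nt, all above the median of 317 nt, and the grey line at 226 nt.

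At the median, circles of the 10 hosts lay between longer introns than all placed circles, though not in every host. Averaged over both sides, the introns next to a circle were 8751.5 nt long at the median, while over all placed circles this was 5624 nt. The same median was 9795 nt for 20 other much-studied hosts, such as Foxo3 and Fbxw7, and 6720 nt for paralogs of the 10 hosts. It was longer than the median of the other introns of the isoform in all 10 main circles and in 50 of 53 circles (94.3%), against 84.8% of the catalogue. The introns beside the Hipk3 exon 2 circle were 22100 and 24113 nt, where the other introns of the isoform had a median of 730 nt. For Hipk2 the upstream intron was 56485 nt and the downstream one 70232 nt. The Zfp609 exon 2 circle had 31970 and 63420 nt, and the Cdyl exon 5 circle 25733 and 40087 nt. Main circles of Rhobtb3 (21604 and 13935 nt), Itch (19501 and 5200 nt) and Mbnl1 (65789 and 9368 nt) had the longer intron upstream. Introns beside the Smarca5 circle were short, 1752 nt upstream and 920 nt downstream. The main Zkscan1 circle lay between introns of 7688 and 2927 nt, a mean of 5307.5 nt, below the median of all placed circles. Means for the Itch circles other than the main one were 1107 to 4285 nt, also below it.

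Within a host, the main circle had longer flanking introns than the median of the other circles in 8 of 9 hosts. The exception was Zfp609, whose main exon 6 circle lay between introns of 1083 and 3152 nt. Under alternatives chosen after seeing the data, the count was 9 of 9 with the Zfp609 exon 2 circle as its main one, and 5 of 9 when the main circle was the one that overlaps the most others. This count too rests on how the main circle is chosen, and it was not made over all hosts. Circles of a host often used the same splice sites: 43 of the 53 exonic circles (81.1%) shared an end with another circle of the host, and such circles share a flanking intron too. The same share over the catalogue was not computed. The 10 hosts had more circles each (median 5, against 2 over all hosts), and so more chances to share an end.

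**Figure D4:**
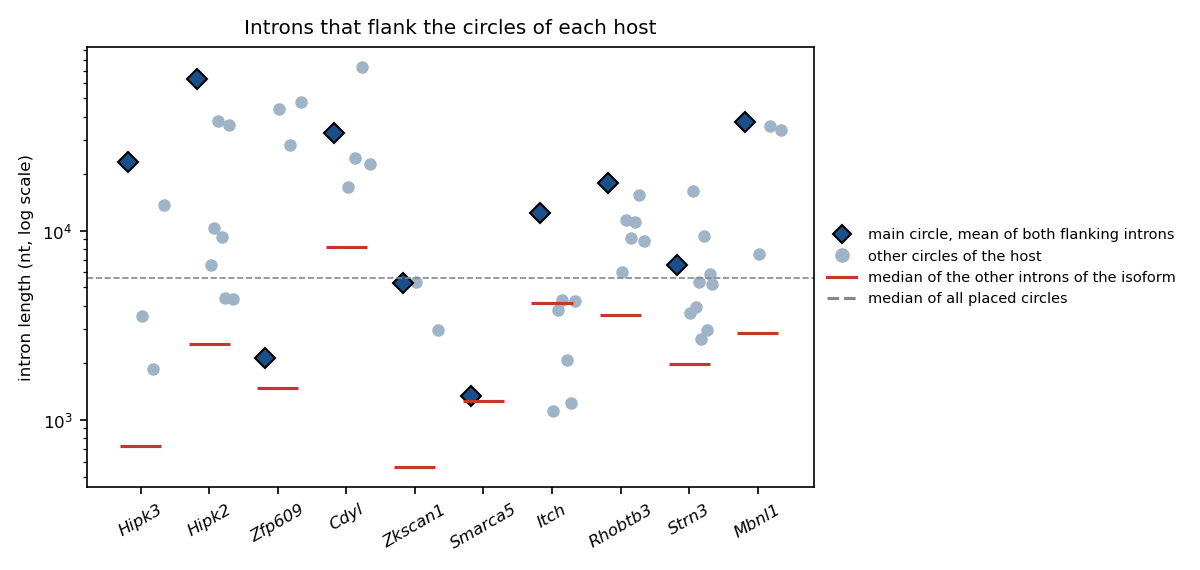
Mean length of the introns on both sides of each exonic circle (y axis, nt, log scale) by host (x axis). Diamonds are main circles, grey points the other circles of the host, red bars the median of the other introns of the isoform on which the main circle lies, and the dashed line the median over all placed circles (5624 nt). The Hipk3 and Hipk2 diamonds lie above every other circle of their host, and the Zfp609 diamond lies below its other circles.

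The start codon lay in 6 of the 53 circles on the isoform the authors name (11.3%, against 10.6% of all placed circles), and in 11 (20.8%, against 14.0%) when every annotated isoform with the same exon ends was allowed. Read from that ATG around the loop, the Hipk3 exon 2 circle had an open frame of 387 codons. Of these, 365 came before the joint, and 64 bases lay between the joint and the stop codon. In the Hipk2 exon 2 circle the frame was 380 codons and 58 bases lay between the joint and the stop. In Zkscan1 circRNA2259 the frame held 191 codons before the joint and 32 bases after it up to the stop. The Zfp609 exon 2 circle had 250 codons, with 3 bases between the joint and the stop codon. Among the 2293 circles with a start codon whose frame met a stop past the joint, 19.5% had it within 10 bases of the joint. In the joint below the stop codon is in capitals.
Zfp609 circRNA3355 joint: gtcaagtctgaaaagcaaTGAtgttgtcca
Mbnl1 circRNA10406 has 372 nt, a multiple of 3, and no stop codon in the frame of the start codon of one of its isoforms, so that frame does not end. The same held for 15.1% of 2700 circles with a start codon. An open frame is a property of the sequence, and translation was not measured.

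Paralogs of the 10 hosts gave circles too. Of 15 paralogs looked for, 12 had circles, 66 in all, of which 14 (21.2%) had values in both groups over 3 or more libraries. None of the 66 was marked, against 1.75% of all circles (0.180 was their smallest p by the authors' deposited table). Cdyl2 exon 2 closed on itself as circRNA3636 (583 nt), between introns of 108431 and 28604 nt. Its bases were 71.0% identical to the Cdyl exon 5 circle over 542 aligned bases, with 166 gap bases. The Hipk exon 2 pairs had 52 to 105 gap bases over 1039 to 1055 aligned bases. The authors' deposited table gave circRNA3636 a log2 fold change of 0.47 (p = 0.450). Mbnl2 exon 2, the 619 nt circRNA1364, holds the start codon and was at 0.06 by the authors' deposited table (p = 0.916). Zfp608, the paralog of Zfp609, had its exon 3 as a circle (256 nt), at 0.57 by the authors' deposited table (p = 0.586). Among the ubiquitin ligases related to Itch, the Nedd4 circle of exons 2 to 6 was at 0.03 (p = 0.929) and the Wwp2 circle of exons 2 to 4 at 1.87 (p = 0.302) by the authors' deposited table. The striatins Strn (exons 2 and 3) and Strn4 (exons 2 to 4) stood at -1.67 (p = 0.413) and 0.32 (p = 0.777) by the authors' deposited table.

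Beside the 10 hosts, the 20 other much-studied hosts gave 217 circles, of which 75 (34.6%) had values in both groups over 3 or more libraries. Of those seen in more than 1 library, 82.1% were higher in A, against 70.1% of all such circles. The authors' deposited table marked 2 of the 217, both higher in A. One was Slc8a1 circRNA954, found in A alone (p = 0.00273), and the other Dym circRNA1600, with a log2 fold change of 1.69 (p = 0.0123). Hosts that encode factors acting on circle formation, such as Quaking, gave 59 circles from 17 of 18 genes. None of the 59 was marked, against 1.75% of all circles (0.0607 was their smallest p by the authors' deposited table).

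Some human circles of these hosts are described as binding microRNAs: miR-7, miR-17 and miR-214 for ITCH and miR-138 for ZNF609. The mouse forms below come from RefSeq (GRCm38.p6), with the seed, bases 2 to 8, in capitals.
miR-7a-5p: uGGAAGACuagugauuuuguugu
miR-17-5p: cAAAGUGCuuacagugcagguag
miR-214-3p: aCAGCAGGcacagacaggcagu
miR-138-5p: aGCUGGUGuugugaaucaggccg
The letters that pair with each seed were searched on the sense strand of each circle, with the joint included. None of the 7 Itch circles held a match to any of the 4. The match to miR-17-5p, GCACTTT, was found in 8 of 53 circles, all of Hipk3 and Strn3, and in 4.08% of all placed circles. Its 5 Strn3 circles share exons, as do Hipk3 circRNA2859 and the exon 2 and 3 circle, so the 8 are few separate sites. CCTGCTG, for miR-214-3p, was in 5 circles and in 12.9% of the catalogue. CACCAGC, for miR-138-5p, was in 4, none of them of Zfp609, and in 9.60% of the catalogue. GTCTTCC, for miR-7a-5p, was in none of the 53 and in 4.80% of the catalogue. A match or its absence describes these letters only, and binding was not measured.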

How the data were processed

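CircRNAs were measured in ovaries of neonatal (3 libraries) and adult (3 libraries) mice after RNase R digestion. Bowtie 0.12.2 and the GRCm38 build are named in the submitters' processing notes. Neither the circRNA caller nor the authors' test is named in them (not given in the sources used here). Per the file headers, the authors deposited a log2 fold change of A over B, infinite where 1 group is at 0, and a p-value with its adjusted value. The 24 per-library columns and 2 group mean columns match no sample label and were not used, so depth is unknown, no test of libraries was run and no value is given for either age. One line was left out of each of the 2 tables. All differences are the authors' own.

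The number of libraries holding a circle was read from p: 0.42265 (tolerance 1e-09) for 1 library, under 0.183503 for 3 libraries of 1 group, and, with a tolerance of 1e-06, the value that 1 library in each group gives. The code for this reading was checked on simulated data made with the same unequal-variance test. Such data cannot show which test the authors used. Circles were placed on the isoform the authors name in GENCODE M21 (25828 of 26144 exonic circles, and 53 of 53 of the members). Tools were python 3.11.15, pandas 2.3.3, numpy 2.4.6, scipy 1.17.1, biopython 1.88 and matplotlib 3.10.9. In each host the main circle, every marked circle and the circle with the smallest p were named, except where that smallest p was the single-library value. The member hosts and gene lists were chosen with earlier results of these data known. Coordinates are those of the authors, counted from 1.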

Additional observations from a re-analysis of the deposited data

How the results depend on the processing

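The marked count of 1 stayed at 1 with no limit on the fold change (p under 0.05), and was 0 with p under 0.01 and 0 with the deposited adjusted p under 0.05. The count of 29 circles in 2 or more libraries was the same with a tolerance of 0.001 on p. The share higher in A was 72.7% in both groups only, against 72.4%. The 7 hosts whose main circle had fewer exons than the median of the others were 2 when the main circle was the one that overlaps the most others, and 7 when the others were limited to multi-library circles. The start codon count of 6 was 11 with any annotated isoform. Longer introns in 8 hosts were 7 by the shorter intron and, in an alternative chosen after seeing the data, 5 with the main circle that overlaps the most others. With the Zfp609 exon 2 circle as the main one, chosen after seeing the data, the counts for exons and introns were 7 and 9. Searches for inverted matches in flanking introns were planned and not run, since no genome sequence was used here. No paired analysis was possible because the per-library columns match no sample label, and leaving out a library was not done for the same reason.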
